A study of Mus musculus with 24 samples.

Results

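The genes described here encode the subunits of the oxidative phosphorylation machinery of mitochondria. They were chosen by symbol alone. The rule uses no measured value, but was set with earlier results of these data known. It takes symbols beginning with Nduf, Uqcr, Cox4, Cox5, Cox6, Cox7, Cox8 or Atp5, together with Sdha, Sdhb, Sdhc, Sdhd, Cyc1 and Cycs, and leaves out symbols marked as pseudogenes. The rule found 94 of the 24421 genes in the count tables: 38 complex I genes, 7 complex I assembly factors (the Ndufaf genes), 4 complex II genes, 9 complex III genes, the cytochrome c gene Cycs, 18 complex IV genes and 17 genes with an Atp5 symbol.

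RNA was sequenced from 2 populations of bone marrow cells sorted from transplanted mice, common lymphoid progenitors (CLPs) and B cell progenitors. CLPs were gated as Lin-IL-7R+, and the B220+IgM-IL-7R+ gate defined the other population. Each of 4 genotypes had 3 mice, which gave 24 libraries. The genotypes were PLCgamma1+/+PLCgamma2+/+ (wild type), PLCgamma1-/-PLCgamma2+/+ (PLCgamma1-null), PLCgamma1+/+PLCgamma2-/- (PLCgamma2-null) and PLCgamma1-/-PLCgamma2-/- (double-null). Donors of every genotype, wild type included, carried a Rosa-YFP reporter and an Mx1-Cre transgene, in which Cre is driven by an interferon-inducible promoter, and were injected with poly(I-C). Plcg1 was floxed and deleted by that Cre, whereas Plcg2 was inactivated in the germline. Donor marrow was given to lethally irradiated CD45.1+ wild-type recipients, and donor-derived CD45.2+ cells were sorted from them. YFP was not named among the markers of these sorts, so cells that kept an intact Plcg1 allele could be present. The labels give no ages. The study's methods describe donors as young adults of a mixed background and of both sexes, and do not state how many donors served a genotype. Where recipients shared a donor, the p-values below measure only the spread between recipients. The comparisons ask whether loss of 1 or both PLCgamma isoforms is accompanied by a different level of respiratory chain transcripts in each population, and whether the populations differ.

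Oxidative phosphorylation couples the passage of electrons to the synthesis of ATP in the inner mitochondrial membrane. NADH feeds electrons into complex I and succinate into complex II, ubiquinone carries them to complex III, cytochrome c carries them on to complex IV, which reduces oxygen, and ATP synthase uses the resulting proton gradient. The nuclear genes described here encode most of the subunits, while mitochondrial DNA encodes a few core subunits of complexes I, III and IV and of ATP synthase. Proliferating lymphoid progenitors draw on both glycolysis and respiration, and PLCgamma enzymes act downstream of receptors by producing diacylglycerol and inositol trisphosphate.

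The CLP libraries had from 4232345 to 33219995 reads on genes, and those of B cell progenitors from 1479582 to 25057223. A count of 3 reads, used here as the floor of detection, corresponded to between 0.0909 and 0.731 CPM (read counts relative to the TMM-scaled number of reads on genes of a library) in CLPs, and in B cell progenitors to between 0.129 and 2.0 CPM. Such floors cover counting error only. Plcg2 checked the germline genotype: it stood at 233.2 ± 44.1 CPM (SD, n = 3) in wild-type CLPs and at 122.2 ± 19.2 and 109.2 ± 9.23 CPM in PLCgamma2-null and double-null CLPs, and in B cell progenitors at 233.6 ± 19.3, 89.05 ± 9.53 and 91.59 ± 19.3 CPM. Plcg1 did not separate the genotypes (106.6 ± 5.86 CPM in wild-type and 140.5 ± 49.3 CPM in double-null CLPs), and a count over the whole gene holds exons outside the deleted segment and so does not check that deletion. The defining markers of both populations were present, with all 7 lymphoid progenitor genes and all 8 B lineage genes at a median above 1 CPM in each. Their sums did not separate the populations. B lineage genes summed to between 818 and 6140 CPM in CLPs and between 1820 and 6540 CPM in B cell progenitors. For lymphoid progenitor genes the sums lay between 1310 and 4120 CPM in CLPs and between 1330 and 5150 CPM in B cell progenitors. Transcripts of myeloid markers were also present: 12 of 12 had a median above 1 CPM in both populations, with summed levels between 2560 and 9930 CPM (CLPs) or 1580 and 8800 CPM (B cell progenitors), whereas the 5 globin genes were at 0 in every library. The Lin- gate should remove cells that carry myeloid surface proteins from the CLPs, and whether these transcripts came from other cells or from the progenitors was not tested. In sorted bulk RNA, fewer cells of a type and less RNA per cell cannot be told apart.

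Together the 94 genes took from 0.7783% to 1.203% of reads assigned to genes. Their summed level was 10870 ± 1170 CPM in wild-type, 9787 ± 1130 in PLCgamma1-null, 9917 ± 842 in PLCgamma2-null and 10410 ± 315 in double-null CLPs (SD, n = 3 each). In B cell progenitors the corresponding sums were 10990 ± 768, 10000 ± 801, 10210 ± 998 and 11020 ± 438 CPM. The libraries of all 8 groups overlapped, from 8680.4 CPM in the lowest to 11868.9 CPM in the highest library. By complex, ATP synthase genes made the largest part (4243 ± 594 CPM in wild-type CLPs), followed by complex I (2852 ± 250), complex IV (1870 ± 153), complex III (1092 ± 130), complex II (629.6 ± 26.3), the assembly factors (132.3 ± 16.3) and Cycs (54.73 ± 10.1), an order that follows the number of genes in part.

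**Figure D1:**
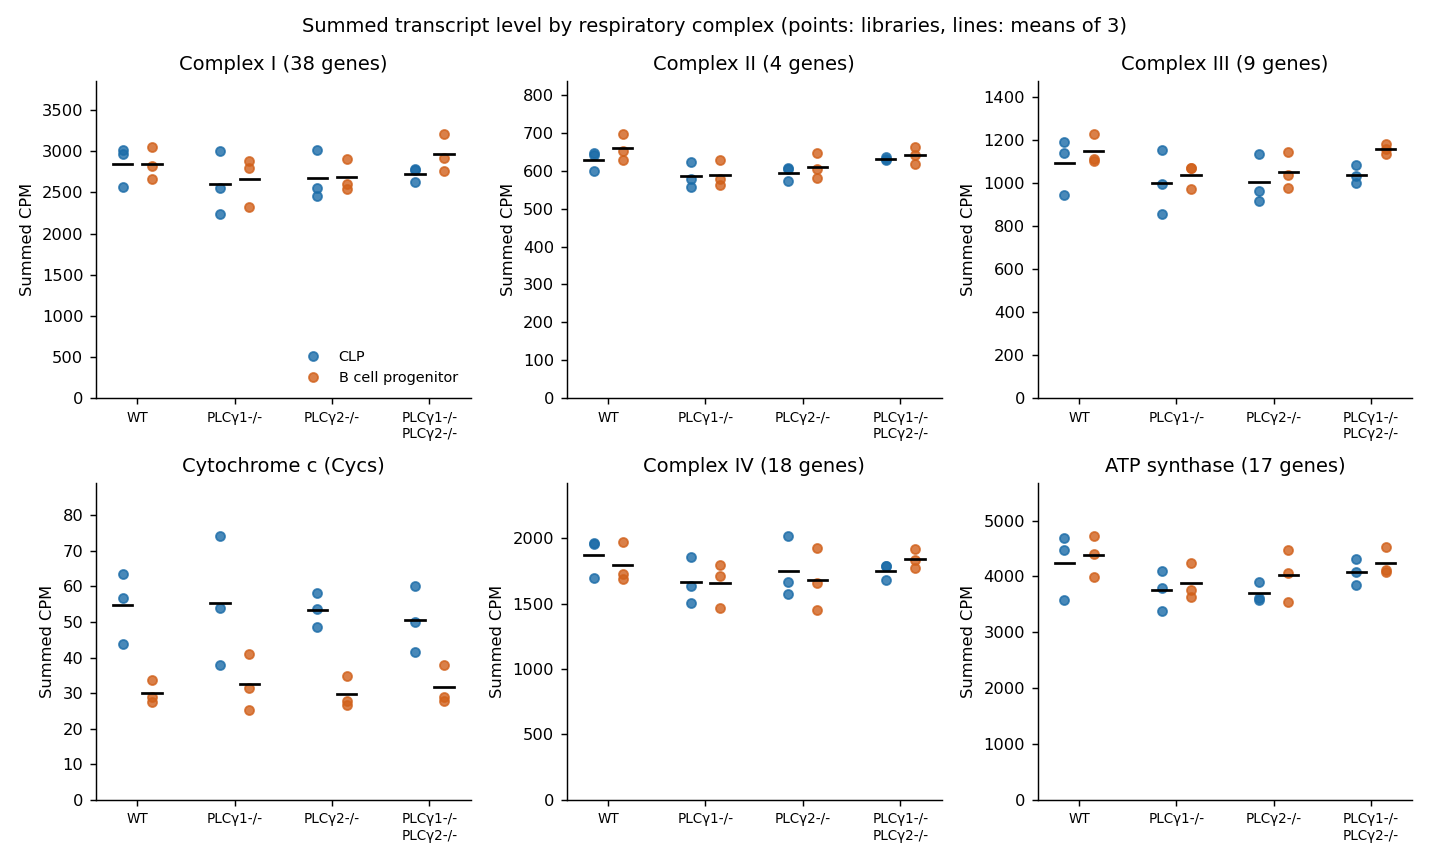
Summed CPM of the genes of each complex (vertical axes from 0) in every library, by genotype, with CLPs in blue, B cell progenitors in orange and the mean of 3 libraries as a bar. Wild-type and double-null libraries overlap in every panel for each population, and Cycs is the panel in which the 2 populations lie furthest apart, at 54.73 against 30.03 CPM in wild type.

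Genes were compared per kilobase of exon. The length was the union of exons over a gene's transcripts, from 315 to 4778 bases, so a long union lowers the level. On this scale the most abundant member in wild-type cells was Atp5b, the catalytic beta subunit of ATP synthase, with 600.9 ± 118 CPM per kb in CLPs and 614.8 ± 82.6 in B cell progenitors. It was followed by Cox4i1, a regulatory subunit of complex IV (569.7 ± 38.9 and 522 ± 65.5 CPM per kb), and by Atp5a1, the alpha subunit of ATP synthase (443.3 ± 67.8 and 463 ± 38.8). Atp5b and Cox4i1 did not differ beyond their spread, and in CLPs neither did Atp5a1 and the genes ranked after it, Cox6a1 with 435.6 ± 83.3, Atp5g3 with 414.5 ± 91.8 and Atp5e with 411.1 ± 66.2 CPM per kb. The core subunits of complex I lay lower: Ndufs1, its large iron-sulfur subunit, stood at 38.29 ± 0.261 CPM per kb and Ndufv1, which binds NADH, at 80.92 ± 4.22 in wild-type CLPs. Complex II was even, with Sdha (the flavoprotein) at 98.7 ± 1.24, Sdhb (the iron-sulfur protein) at 119.2 ± 10.5 and Sdhd (a membrane anchor) at 104.9 ± 7.88, but Sdhc, the other anchor, at 24.62 ± 2.31 CPM per kb. The exon union of Sdhc holds 3171 bases, and in CPM it stood at 78.06 beside 129.1 for Sdhd. In complex III, the core proteins Uqcrc1 and Uqcrc2 stood at 132.3 ± 18 and 94.07 ± 5.44 and cytochrome c1 (Cyc1) at 94.99 ± 17 CPM per kb. The assembly factors, which help to build complex I and are not part of it, stood between 7.852 ± 1.21 (Ndufaf4) and 19.6 ± 6.58 CPM per kb (Ndufaf2) in wild-type CLPs. Their exon unions hold 3632 bases for Ndufaf4 and 678 for Ndufaf2, and in CPM the order was reversed, at 28.52 and 13.29.

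In most isoform sets 1 isoform carried most of the level. Cox4i1 lay near the top of the list, whereas Cox4i2, the isoform known from lung and low oxygen, reached at most 2.643 CPM in CLPs and 2.028 CPM in B cell progenitors. Cox6b1 stood at 237.6 ± 41.2 CPM per kb in wild-type CLPs against 11.16 ± 2.19 for Cox6b2, the testis isoform. Cox7a2 stood at 126.8 ± 24.1 and Cox7a2l, which joins complexes III and IV in supercomplexes, at 134.2 ± 9.61 CPM per kb, against 2.571 ± 0.779 for Cox7a1, the heart and muscle isoform. Ndufa4, first assigned to complex I and now counted as a complex IV subunit, stood at 273.3 ± 29.2 CPM per kb, and its relative Ndufa4l2 had no read in 10 of 24 libraries. Cox8a stood at 377.1 ± 58.2 CPM per kb, while Cox8b and Cox8c had no read in 16 and 20 libraries. The 3 genes for the subunit c ring of ATP synthase were all expressed, but unequally, with Atp5g3 at 414.5 ± 91.8, Atp5g2 at 46.21 ± 8.33 and Atp5g1 at 12.6 ± 2.53 CPM per kb. Atp5g1 was divided by 4778 exonic bases, the longest length of any member. In CPM it stood above Atp5g2, at 60.22 against 33.78 in wild-type CLPs, so the order of these 2 depends on the scale. For Atp5g2 the level is uncertain, since 87.4% of its 50-base stretches also occur in other genes. Cox6a2, the heart and muscle isoform of subunit 6a, stood at 90.09 ± 105 CPM per kb in wild-type CLPs beside 435.6 ± 83.3 for Cox6a1.

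**Figure D2:**
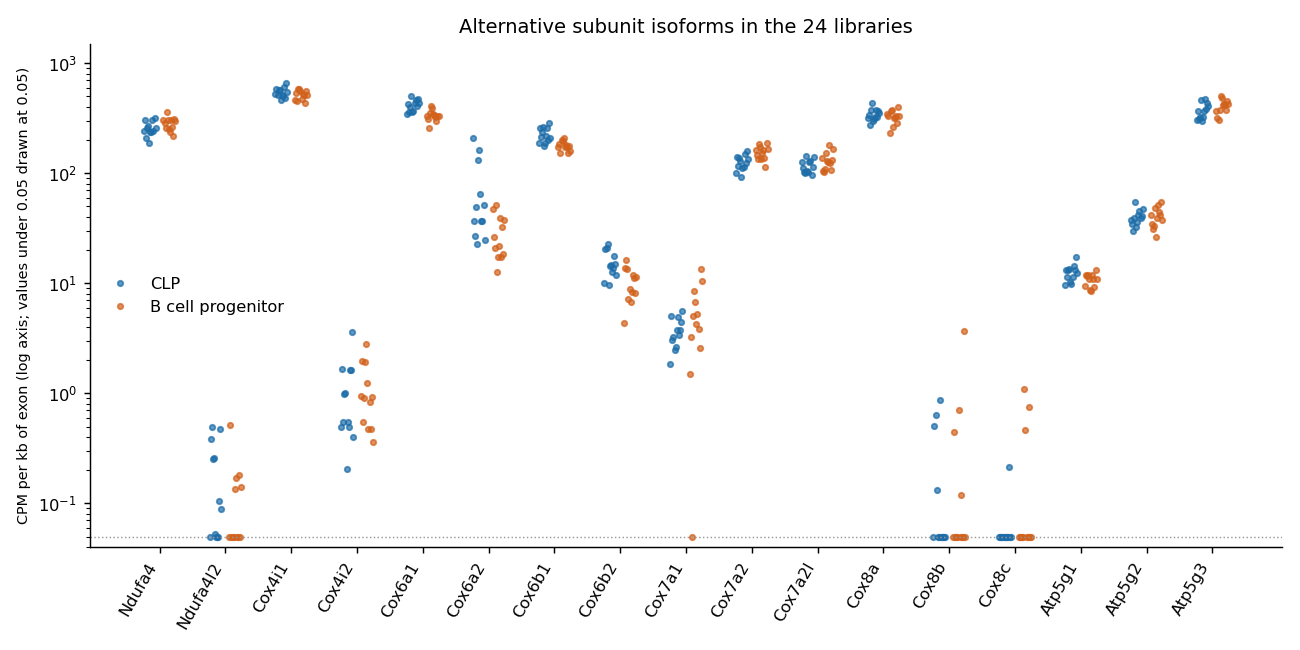
CPM per kb of exon on a log axis for isoforms of the same subunit, 1 point per library, 12 CLP libraries in blue and 12 B cell progenitor libraries in orange. Values under 0.05 are drawn at 0.05. One isoform of each set leads in both populations, apart from Cox7a2 and Cox7a2l, and Cox6a2 spreads from 15.35 to 143.3 CPM in CLPs before division by length.

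Of the 94 members, 5 did not pass the filter on low counts in any fit: Ndufa4l2, Cox8c, Cox7b2, Cox8b and Ndufs5. Cox4i2 passed in CLPs and not in B cell progenitors, so 89 members were tested in CLPs, 88 in B cell progenitors and 89 across both. Ndufs5, which encodes an accessory subunit of complex I, had no read in 19 of 24 libraries and at most 11 reads in any. A processed pseudogene of it, BC002163, shares 41.2% of its 50-base stretches, and how reads with several matches were counted is not given in the sources used here. BC002163 itself held 5.138, 6.823 and 6.3 CPM in the 3 wild-type CLP libraries and 0.9612, 0.842 and 0.685 CPM in the 3 PLCgamma1-null ones. It was lower in every PLCgamma1-null CLP library than in any wild-type one, by a log2 fold change of -2.85 ± 0.272 (SE, edgeR adjusted p = 0.00543), and was the 1 gene called in that comparison. In double-null CLPs, which lack PLCgamma1 too, it stood at 6.815 ± 0.646 CPM, and in B cell progenitors at 8.277 ± 1.27 (wild type), 1.288 ± 1.04 (PLCgamma1-null) and 8.82 ± 1.67 CPM (double-null). Whether reads of Ndufs5 were lost or split in counting was not tested, so no level is given for it. More widely, 30 of the 93 members with an annotated sequence shared over 10% of their 50-base stretches with another gene, 4 of them over 50%, and 45 shared none.

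Matches to 3 short motifs were counted in the promoters of the members and of all genes. In RefSeq sequence of GRCm38.p6 covering 250 bases before to 50 after the start, 77 members had a promoter. GCGCATGC, the core bound by NRF1, was present on either strand in 16.9% of them against 3.96% of 18091 genes. CCGGAAG, a core of ETS factors such as GABP, was present in 22.1% against 12.8%, and AAGATGGC, a core of YY1, in 14.3% against 3.61%. NRF1, GABP and YY1 are known regulators of respiratory genes, and the matches are descriptions of the sequence only. The promoters of Cycs and Ndufa3, whose levels differed between the populations, and of Cox6a1, an abundant subunit gene with 3 matches, are shown 5′ to 3′ on the strand of the gene, with matches in capitals.
Cycs (chr6:50566520-50566819, minus strand, NRF1 core): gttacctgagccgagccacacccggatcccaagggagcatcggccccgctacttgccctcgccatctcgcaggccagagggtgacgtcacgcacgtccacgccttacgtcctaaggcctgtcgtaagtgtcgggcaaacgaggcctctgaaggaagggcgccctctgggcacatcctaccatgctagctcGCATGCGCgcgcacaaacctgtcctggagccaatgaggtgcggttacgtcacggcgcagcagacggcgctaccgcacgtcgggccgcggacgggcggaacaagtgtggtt
Cox6a1 (chr5:115348909-115349208, minus strand, overlapping NRF1 cores of both strands first, ETS core last): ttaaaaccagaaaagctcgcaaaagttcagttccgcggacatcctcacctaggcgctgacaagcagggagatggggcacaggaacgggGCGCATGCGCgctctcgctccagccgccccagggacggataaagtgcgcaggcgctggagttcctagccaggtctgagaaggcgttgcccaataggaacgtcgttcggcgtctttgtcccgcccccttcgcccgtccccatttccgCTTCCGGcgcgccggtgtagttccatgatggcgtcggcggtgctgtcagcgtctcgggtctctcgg
Ndufa3 (chr7:3617123-3617422, plus strand, YY1 core): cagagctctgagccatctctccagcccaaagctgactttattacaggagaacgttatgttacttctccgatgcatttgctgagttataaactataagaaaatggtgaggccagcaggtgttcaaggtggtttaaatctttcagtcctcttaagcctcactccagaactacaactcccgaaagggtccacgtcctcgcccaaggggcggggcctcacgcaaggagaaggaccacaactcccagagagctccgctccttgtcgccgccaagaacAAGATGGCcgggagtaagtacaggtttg

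Loss of both PLCgammas was not accompanied by a called difference of any subunit gene in CLPs. A call required an edgeR quasi-likelihood p of at most 0.05 after Benjamini-Hochberg adjustment over all genes and a log2 fold change of at least 0.5 in size. By this rule 0 of 89 members were called in double-null against wild-type CLPs, where 0.0921% of all genes were called. At an unadjusted p of at most 0.05, 1 member passed against 7.52% of all genes, and DESeq2 called 0 members against 1.15% of all genes. The libraries of these groups did not overlap for 4 members, against 13.6% of all genes. The median log2 fold change over the members was -0.0764, with 18 members higher and 71 lower, while the median over all genes was -0.0326 with 45.6% of them higher. The 95% interval of the log2 fold change lay within ±0.5 for 52 members and within ±1 for 84, the latter bounding the difference at less than 2-fold. The median interval reached 0.381 to either side of its estimate, so a change near the fold threshold would mostly go uncalled.

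The member with the lowest p was Atp5sl, now named Dmac2, which despite its symbol is a factor for the assembly of the membrane arm of complex I. It stood at 52.46, 59.7 and 54.46 CPM in the wild-type and at 49.12, 42.49 and 35.45 CPM in the double-null CLP libraries. Every double-null library lay below every wild-type one, but the log2 fold change of -0.40 ± 0.163 did not pass the threshold (edgeR adjusted p = 0.609). Ndufv1 followed with 128.9, 142.3 and 132 CPM in wild type against 121.9, 113 and 112 CPM, a log2 fold change of -0.23 ± 0.11, and Cox7a1, a gene near 1 CPM, with 0.80 ± 0.43. Among other named subunits Atp5b was close to even, with 920.6, 1371 and 1162 CPM in the wild-type and 1027, 1211 and 1286 CPM in the double-null libraries. Sdha stood at 286.2 ± 3.59 and 298 ± 7.17 CPM, Cox4i1 at 435.8 ± 29.7 and 415.9 ± 26, and Uqcrc1 at 218.7 and 213.9 CPM on average. By complex, the median log2 fold change was -0.05 for complex I (7 of 36 genes higher), -0.02 for complex II, -0.08 for complexes III and IV and -0.09 for ATP synthase (1 of 17 higher), with 0 called in each. Complexes were assigned by symbol here and throughout, so Atp5sl is counted with ATP synthase and Ndufa4 with complex I.

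The single losses gave the same count in CLPs. In PLCgamma1-null CLPs 0 of 89 members were called, against 0.00658% of all genes, 1 member passed at an unadjusted p of at most 0.05, against 2.85% of all genes, and DESeq2 called 0 members against 0.094%. The median over the members was -0.131, with 10 higher and 79 lower, beside -0.0110 over all genes, of which 48.1% were higher. The lowest p belonged to Cox7a2l, which stood at 145.7, 166.2 and 149 CPM in wild type and at 128.8, 119.3 and 110.8 CPM in PLCgamma1-null CLPs. The groups did not overlap, as for 6 members and 6.01% of all genes, yet the log2 fold change of -0.36 ± 0.131 had an edgeR adjusted p of 1. Ndufaf3 (-0.37 ± 0.173) and Cox6b2 (0.64 ± 0.299) came next. In PLCgamma2-null CLPs 0 members were called, against 0% of all genes, 2 passed at an unadjusted p of at most 0.05, against 3.92%, and DESeq2 called 0 against 0.0725%. Their median was -0.0599 with 29 higher and 60 lower, beside 0.00897 over all genes. The 3 members with the lowest p were again led by Cox7a2l with 119, 118.7 and 129.7 CPM (log2 fold change -0.32 ± 0.131, edgeR adjusted p = 0.939), with Ndufv1 at -0.27 ± 0.11 and Atp5b at -0.33 ± 0.151. Both single-knockout comparisons and the double-null one share the 3 wild-type libraries. Without the first wild-type library, which held 9531.8 CPM of member reads, the lowest of the 3, the member median moved to -0.232 in PLCgamma1-null and -0.178 in double-null CLPs, and without the PLCgamma1-null libraries 1 and 2 in turn it was -0.254 and -0.0164 in PLCgamma1-null CLPs.

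In B cell progenitors, 0 of 88 members were called in double-null against wild type, where 0.893% of all genes were. At an unadjusted p of at most 0.05, 2 members passed, against 12.3% of all genes, and DESeq2 called 0, against 3.36%. The libraries of these groups did not overlap for 9 members, against 19.2% of all genes. The member median was 0.0676, with 60 higher and 28 lower, beside -0.0178 over all genes, of which 48.2% were higher, and 58 of the 88 intervals lay within ±0.5, with a median reach of 0.347 to either side. Atp5sl again had the lowest p, with 47.81, 42.1 and 48.95 CPM in wild type and 31.14, 31.11 and 37.48 CPM in double-null libraries. All 3 double-null libraries lay below the wild-type ones, at a log2 fold change of -0.48 ± 0.148 (edgeR adjusted p = 0.201). Uqcrb, a small subunit of complex III, stood at 66, 75.5 and 59.96 CPM in wild type and at 88.18, 78.47 and 92.84 CPM in double-null libraries. All 3 double-null libraries lay above the wild-type ones, at a log2 fold change of 0.36 ± 0.134 (edgeR adjusted p = 0.297). Uqcr11, another small complex III subunit, followed with 0.31 ± 0.155. Complex I had a median of 0.09 (28 of 36 higher), complex III of 0.08, complex IV of 0.07, ATP synthase of 0.06 and complex II of -0.01.

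In PLCgamma1-null B cell progenitors 0 members were called, against 0.06% of all genes, 1 passed at an unadjusted p of at most 0.05, against 9.93%, and DESeq2 called 0 against 0.113%. The lowest p values belonged to Uqcrc2 (189.6 CPM on average in wild type and 154.5 in PLCgamma1-null, log2 fold change -0.28 ± 0.125), Atp5j (-0.32 ± 0.148) and Atp5a1 (-0.29 ± 0.138), each with an edgeR adjusted p of 0.467. Atp5j and Uqcrc2 share exonic bases with genes on the other strand, and the part of those genes in these values was not tested. In PLCgamma2-null B cell progenitors 0 members were called, against 0.0467% of all genes, 0 passed at an unadjusted p of at most 0.05, against 2.84%, and DESeq2 called 0 against 0.111%. There the 3 lowest p values belonged to Atp5sl (37.08, 39.5 and 36.7 CPM, log2 fold change -0.27 ± 0.15), Ndufb10 (-0.23 ± 0.15) and Cyc1 (-0.20 ± 0.143), with an edgeR adjusted p of 0.919. The member medians were -0.0712 and -0.0703, beside 0.0564 and 0.0285 over all genes, with 27 and 19 of 88 members higher.

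**Figure D3:**
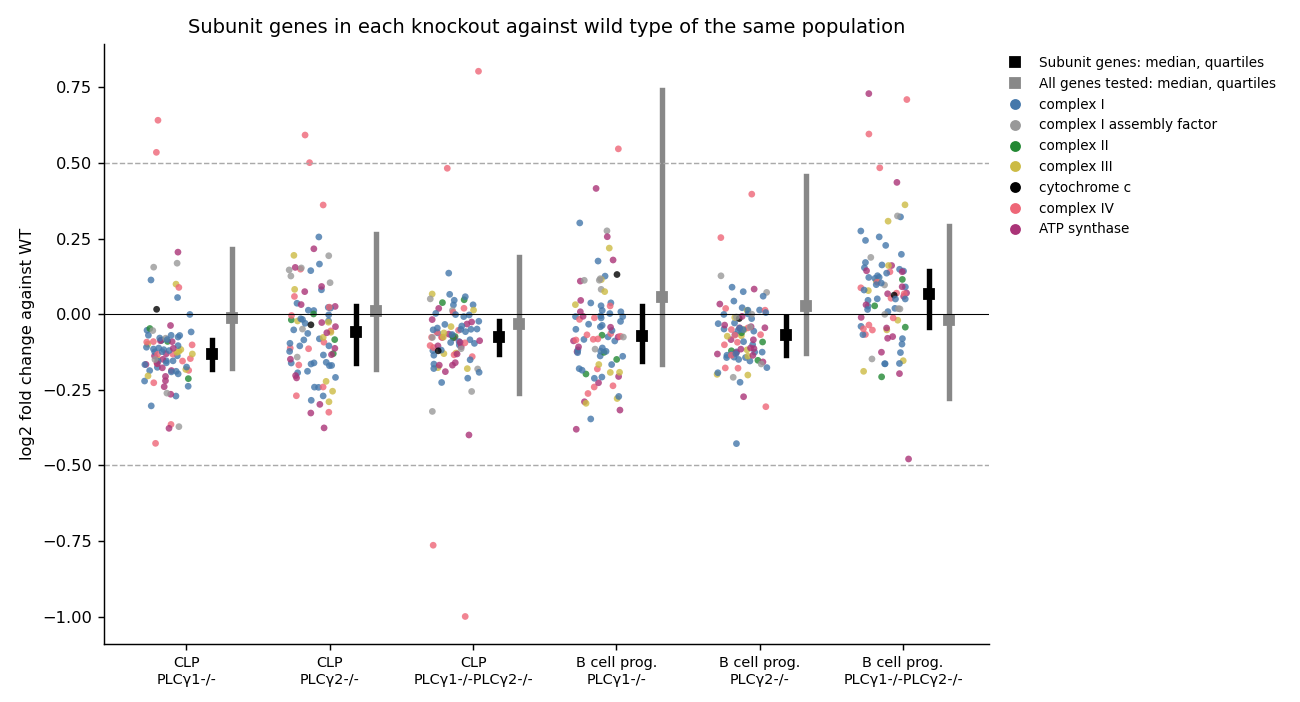
The log2 fold change of each tested member in each knockout against wild type of the same population, coloured by complex, with the median and quartiles of the members in black and of all tested genes in grey. Dashed lines mark ±0.5. The members lie closer together than all genes in each of the 6 comparisons, and those beyond the dashed lines are complex IV isoforms and an Atp5 gene, none of them past the adjusted p threshold.

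The 2 single losses were also set against the double loss. In CLPs, 0 members were called in double-null against PLCgamma1-null cells, where 0.0263% of all genes were, 0 passed at an unadjusted p of at most 0.05 against 4.29%, and DESeq2 called 0 against 0.554%. Atp5sl (-0.31 ± 0.162), Ndufaf3 (0.29 ± 0.172) and Cox7a2l (0.22 ± 0.131) had the lowest p. Against PLCgamma2-null CLPs, 0 were called where 0.0526% of all genes were, 2 passed at an unadjusted p of at most 0.05 against 7.54%, and DESeq2 called 0 against 0.61%. The libraries of these groups did not overlap for 13 members, against 14.4% of all genes. Here Atp5b stood at 935.9, 952.1 and 859.1 CPM in PLCgamma2-null cells, below each of the 3 double-null libraries, at a log2 fold change of 0.35 ± 0.151 (edgeR adjusted p = 0.646), followed by Atp5sl (-0.36 ± 0.163) and Uqcrc2 (0.27 ± 0.122).

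In B cell progenitors, 0 members were called in double-null against PLCgamma1-null cells, where 0.213% of all genes were, 1 passed at an unadjusted p of at most 0.05 against 16.6%, and DESeq2 called 0 against 5.4%. The member median was 0.135 with 72 of 88 higher, beside -0.0338 over all genes. Cox7a2 (0.35 ± 0.154), Ndufa4 (0.32 ± 0.149) and Cox7a2l (0.40 ± 0.187) had the lowest p, at edgeR adjusted p values of 0.282, 0.303 and 0.306. Against PLCgamma2-null cells, 0 were called where 0.153% of all genes were, 4 passed at an unadjusted p of at most 0.05 against 11%, and DESeq2 called 0 against 0.936%. The median there was 0.119 with 76 of 88 higher, beside -0.0272 over all genes. The libraries of these groups did not overlap for 14 members, against 13.4% of all genes. Uqcrb stood at 66.98, 60.1 and 62.72 CPM in PLCgamma2-null libraries, all below the 3 double-null ones, at a log2 fold change of 0.43 ± 0.137 (edgeR adjusted p = 0.365). Ndufb2, a small complex I subunit, followed with 29.51, 32.14 and 31.36 CPM against 53.76, 40.54 and 35.76 CPM (0.45 ± 0.175), and Cox6a2 with 1.02 ± 0.428.

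A difference between the effect of the double loss and the sum of both single losses was tested as an interaction. In CLPs 0 members were called, against 0.0197% of all genes, 4 passed at an unadjusted p of at most 0.05 against 4.77%, and DESeq2 called 0 against 0.178%. Cox7a2l gave 0.55 ± 0.185, Atp5g2 0.65 ± 0.249 and Atp5b 0.53 ± 0.213, each with an edgeR adjusted p of 0.862. In B cell progenitors 0 were called, against 0.0267%, 1 passed at an unadjusted p of at most 0.05 against 15.3%, and DESeq2 called 0 against 4.97%. Cox7a2l led here with 0.58 ± 0.265 (edgeR adjusted p = 0.323), from 159.5, 174.2 and 141.3 CPM in wild type, 119.7, 147.3 and 123.8 in PLCgamma1-null, 116.8, 145.8 and 152.8 in PLCgamma2-null and 124.9, 207.1 and 191.4 CPM in double-null libraries, which overlapped. Uqcrc2 (0.38 ± 0.177) and Ndufb6 (0.45 ± 0.212) followed. The member medians of this interaction were 0.116 in CLPs and 0.204 in B cell progenitors, with 61 of 89 and 80 of 88 members above 0, beside -0.0431 and -0.0239 over all genes. Leaving out 1 library at a time moved these medians over a range from 0.0146 (without PLCgamma1-null replicate 2) to 0.258 (without PLCgamma1-null replicate 1) in CLPs and from 0.14 (without PLCgamma1-null replicate 3) to 0.355 (without PLCgamma1-null replicate 1) in B cell progenitors.

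**Figure D4:**
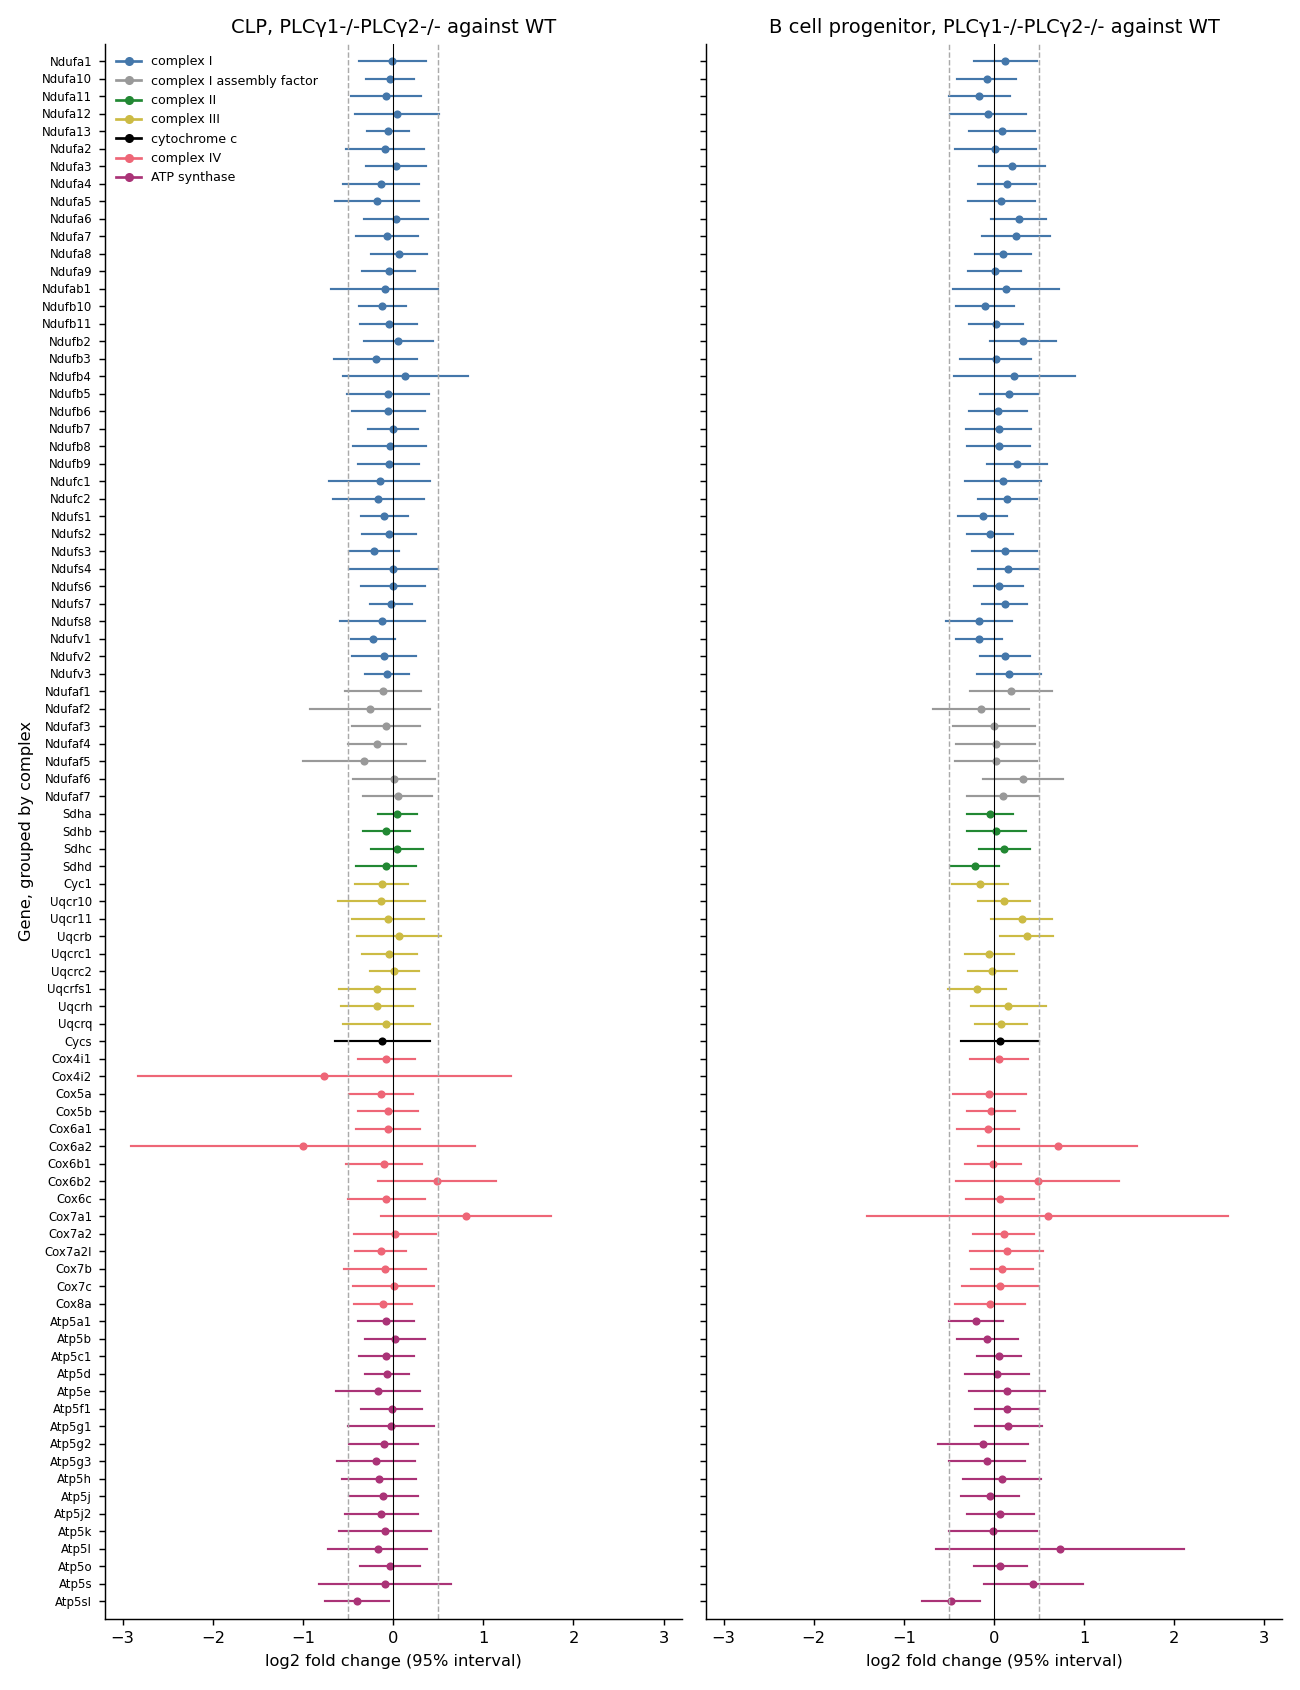
The log2 fold change of each tested member in double-null against wild-type CLPs (left) and B cell progenitors (right), with its 95% interval from the edgeR fit, grouped and coloured by complex. Dashed lines mark ±0.5. The widest intervals are those of Cox4i2 and Cox6a2 in CLPs and of Cox7a1 and Atp5l in B cell progenitors, and 52 of 89 intervals in CLPs and 58 of 88 in B cell progenitors lie within the dashed lines.

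The effect of the double loss was called different between the populations for no member: 0 of 89 were called in the test of that difference, against 0% of all genes, 0 passed at an unadjusted p of at most 0.05, against 1.37%, and DESeq2 called 0 against 0%. The 3 lowest p values belonged to Ndufs3 (0.33 ± 0.195), Cox6a2 (1.69 ± 1.02) and Atp5l (0.86 ± 0.55), all with an edgeR adjusted p of 1. The interval for Cox6a2 ran from -0.44 to 3.83, the widest of these 3.

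Between the populations between 2 and 3 of 89 members were called in each genotype, a share near that of all genes. By the unadjusted p and by overlap of libraries, double-null cells held a larger share of members than of all genes. In wild type 2 of 89 members were called in B cell progenitors against CLPs, where 3.5% of all genes were. At an unadjusted p of at most 0.05, 18 members passed, against 16.1% of all genes, and DESeq2 called 4 members, against 5.52%. In PLCgamma1-null cells 3 were called against 3.78%, 15 passed at the unadjusted threshold against 26.5%, and DESeq2 called 5 against 7.74%. In PLCgamma2-null cells 3 were called against 3.21%, 12 passed at the unadjusted threshold against 16.2%, and DESeq2 called 3 against 4.45%. In double-null cells 2 were called against 3.24%, 26 passed at the unadjusted threshold against 14.3%, and DESeq2 called 5 against 4.43%. In this order of genotypes the populations did not overlap for 22, 15, 19 and 41 members, against 20.9%, 23.5%, 18.3% and 21.3% of all genes. The member medians were 0.0443, 0.0521, -0.0026 and 0.125 in the 4 genotypes, beside -0.0115, 0.133, 0.0802 and -0.0268 over all genes. Without 1 library the medians ran from -0.0637 to 0.117, from -0.189 to 0.0553, from -0.182 to -0.00383 and from 0.0384 to 0.174. The lowest values came without wild-type B cell progenitor library 2, PLCgamma1-null CLP library 2, PLCgamma2-null B cell progenitor library 3 and double-null B cell progenitor library 1, so a direction was not stable in wild-type and PLCgamma1-null cells.

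Cycs (chr6:50562563-50566569, mm10), which encodes cytochrome c, was lower in B cell progenitors. It stood at 43.78, 56.78 and 63.63 CPM in wild-type CLPs and at 27.54, 33.72 and 28.81 CPM in wild-type B cell progenitors. All 3 CLP libraries lay above all 3 B cell progenitor libraries, which made B cell progenitors lower by a log2 fold change of -0.87 ± 0.224 (edgeR adjusted p = 0.0305). In PLCgamma1-null cells 1 CLP library (37.94 CPM) lay below 1 B cell progenitor library (40.92 CPM). In PLCgamma2-null cells the log2 fold change was -0.86 ± 0.232 (edgeR adjusted p = 0.0438), and it was -0.77 ± 0.224 and -0.69 ± 0.225 in PLCgamma1-null and double-null cells, where it missed the threshold (edgeR adjusted p = 0.0575 and 0.116). Both populations came from the same mice, and with the mouse as a block Cycs was called in all 4 genotypes, with adjusted p of 0.00111, 0.00356, 0.00167 and 0.00713. Without the block the call in wild-type and in PLCgamma2-null cells was lost whichever library was left out, with log2 fold changes between -0.73 and -0.98 in wild type. The count for Cycs is uncertain, since 28.5% of its 50-base stretches occur in other genes, most of them in Gm10053.

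Atp5l (chr9:44913248-44920742), the g subunit of ATP synthase, was the member with the widest difference and was called lower in B cell progenitors of all 4 genotypes. It stood at 7.308, 10.48 and 9.813 CPM in wild-type CLPs and at 1.672, 1.611 and 1.131 CPM in wild-type B cell progenitors. No library of one population reached the other, from 6.142 to 11.67 CPM in the 12 CLP and from 0.6672 to 3.576 CPM in the 12 B cell progenitor libraries. The level in wild type was 6.23-fold lower in B cell progenitors (log2 fold change -2.64 ± 0.402, edgeR adjusted p = 2e-04), and the log2 fold changes were -2.11 ± 0.399, -2.86 ± 0.443 and -1.78 ± 0.395 in PLCgamma1-null, PLCgamma2-null and double-null cells. In double-null cells the call was lost without the second B cell progenitor library. The level in wild-type CLPs, 16.91 ± 3.07 CPM per kb, was far under the 600.9 CPM per kb of Atp5b, and 84.8% of its 50-base stretches occur in 14 other genes, among them the processed pseudogene Gm10221.

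Uqcrb (chr13:66900576-66905350), a small subunit of complex III, went the other way. It stood at 52.51, 43.92 and 42.3 CPM in double-null CLPs and at 88.18, 78.47 and 92.84 CPM in double-null B cell progenitors. The groups did not overlap, and B cell progenitors were higher by a log2 fold change of 0.90 ± 0.176 (edgeR adjusted p = 0.00315). It was also called in PLCgamma1-null cells (0.71 ± 0.176, edgeR adjusted p = 0.0243), a call that was lost when either of 2 CLP or any of 3 B cell progenitor libraries was left out. In wild type it missed the threshold at 0.61 ± 0.176 (edgeR adjusted p = 0.0572), and in PLCgamma2-null cells it was 0.33 ± 0.179 (edgeR adjusted p = 0.368). Of its 50-base stretches 43.4% occur in 5 other genes.

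Ndufa3 (chr7:3617347-3620165), an accessory subunit of complex I, was called lower in B cell progenitors of both single knockouts. It stood at 46.75, 44 and 59.9 CPM in PLCgamma2-null CLPs and at 27.51, 31.93 and 38.03 CPM in PLCgamma2-null B cell progenitors, a log2 fold change of -0.63 ± 0.163 (edgeR adjusted p = 0.033). In PLCgamma1-null cells it was -0.62 ± 0.159 (edgeR adjusted p = 0.0307), in wild type -0.51 ± 0.158 (edgeR adjusted p = 0.0852, and 0.0187 with the mouse as a block) and in double-null cells -0.35 ± 0.158. Over all 12 mice the CLP libraries, from 42.66 to 59.9 CPM, lay above the B cell progenitor libraries, from 27.02 to 40.65 CPM. The calls were lost in PLCgamma1-null cells without CLP library 1 or B cell progenitor library 2 or 3, and in PLCgamma2-null cells without library 1 or 3 of CLPs or 1 or 2 of B cell progenitors. Ndufa3 shares no 50-base stretch with another gene, and 0.777% of its exonic bases lie opposite Tfpt.

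Ndufs1 and Ndufs7, core subunits of complex I, differed by the adjusted p alone, with a log2 fold change under 0.5 in size. Ndufs1 stood at 102, 101.1 and 102.5 CPM in wild-type CLPs and at 151.6, 139.4 and 135 CPM in wild-type B cell progenitors. It was lower in every CLP library, at most 112.3 CPM, than in every B cell progenitor library, at least 115.2 CPM, with log2 fold changes of 0.48 ± 0.115, 0.47 ± 0.115, 0.44 ± 0.116 and 0.44 ± 0.115 in the 4 genotypes (edgeR adjusted p between 0.018 and 0.0378). Of its exonic bases 9.32% lie opposite the noncoding gene Ino80dos. Ndufs7 stood at 77.93, 87.48 and 85.68 CPM in wild-type CLPs and at 56.85, 66.16 and 63.36 CPM in wild-type B cell progenitors, a log2 fold change of -0.43 ± 0.0997 (edgeR adjusted p = 0.0137). It shares no 50-base stretch and no opposite-strand exon with another gene, and stayed under the fold threshold.

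The count tables of the 2 populations differed in ways that move with these results. Reads given as ambiguous made up from 1.056% to 1.441% in CLPs but from 0.1104% to 0.4197% in B cell progenitors, and reads on no gene from 17.94% to 45.24% in CLPs but from 59.86% to 87.35% in B cell progenitors. Genes whose exons lie by more than 50% opposite a gene on the other strand were called higher in B cell progenitors in 50%, 49%, 46.1% and 50% of cases in the 4 genotypes, and genes with no such overlap in 1.12%, 1.07%, 0.887% and 0.964%. Sco2, a copper chaperone for complex IV, was at 0 in all 12 CLP libraries and between 9.97 and 20.4 CPM in B cell progenitors, while Eno1, a glycolytic enzyme, was between 0.391 and 1.54 CPM in CLPs and at 0 in all 12 B cell progenitor libraries. Of the members, 13 had exonic bases opposite another gene. Among the 38 tested members with neither an opposite-strand exon nor a shared 50-base stretch, 0 were called in any of the 4 genotypes by edgeR, and 1 in wild type passed by the adjusted p alone (Ndufs7), with medians of 0.0449, 0.114, 0.00269 and 0.131. Ndufa3, called in both single knockouts, is outside this set only by the 0.777% of its exonic bases that lie opposite Tfpt. The populations and the making of their tables cannot be told apart, and this holds for each of the population differences given above.

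**Figure D5:**
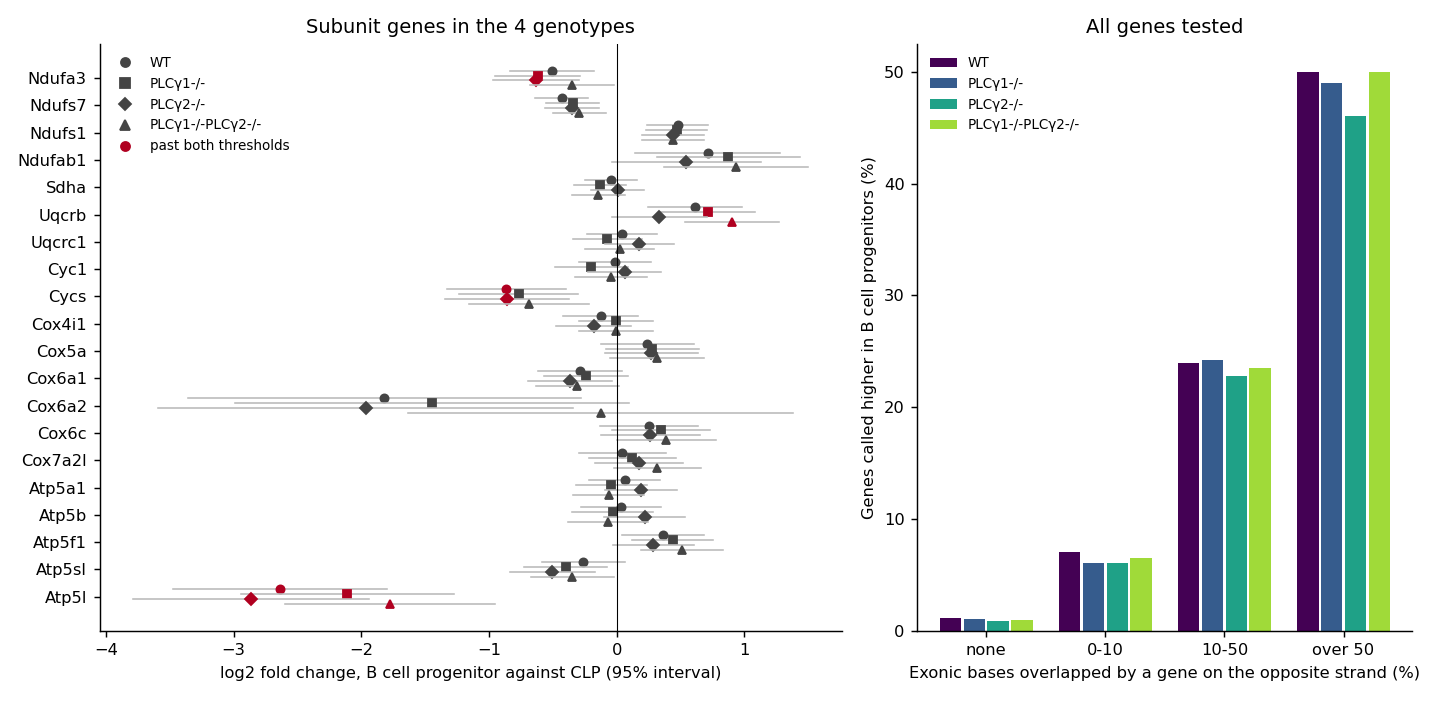
Left, the log2 fold change of B cell progenitors against CLPs with its 95% interval for the members named in the text, 4 genotypes each, red where both thresholds were passed. Right, the share of all tested genes called higher in B cell progenitors by the percent of exonic bases that lie opposite another gene, which runs from 1.12% with none to 50% above 50 in wild type.

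Cox6a2 varied widely between mice, and 10.3% of its exonic bases lie opposite Itgad. It stood at 143.3, 15.35 and 25.08 CPM in wild-type CLPs, at 25.11, 89.55 and 25.05 in PLCgamma1-null, at 18.49, 110.5 and 35.01 in PLCgamma2-null and at 33.77, 43.74 and 16.96 CPM in double-null CLPs. A single library of each of the first 3 groups was several times above its group, and all 4 groups overlapped. In B cell progenitors it lay between 8.7 and 35.07 CPM, with wild-type mouse 1 (32.17 CPM) high in this population too and the 3 double-null libraries at 35.07, 26.51 and 25.43 CPM. Without the first wild-type library the log2 fold change of double-null against wild-type CLPs turned from below 0 (95% interval -2.91 to 0.91) to 0.58. Siglech, a marker of plasmacytoid dendritic cells, moved with it: across the 12 libraries of a population the correlation was r = 0.723 in CLPs and 0.769 in B cell progenitors (Spearman 0.769 and 0.734). For Ccr9, another marker of these cells, the Spearman correlation was 0.867 in CLPs but 0.301 in B cell progenitors. These values are descriptions, since the libraries fall into 4 genotypes. Correlations were taken for Siglech and Ccr9 only, so they do not describe the other listed markers of these cells. The 5 plasmacytoid dendritic markers summed to from 883 to 2390 CPM in CLPs, or 811 to 1540 CPM in B cell progenitors, with all 5 at a median above 1 CPM, and their part in the level of Cox6a2 was not tested. By DESeq2 1 of these markers, Bst2, was called in double-null against wild-type B cell progenitors.

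Genes that build, feed or regulate the respiratory chain were described from lists. There were 7 lists, of 41 assembly factors, 18 TCA cycle genes, 14 regulators of mitochondrial biogenesis, 77 mitochondrial and 84 cytosolic ribosomal proteins, 19 glycolysis genes and 18 proliferation genes. Of their tested genes, 0 of 268 were called by edgeR in double-null CLPs and 0 of 267 in double-null B cell progenitors, with 14 and 28 at an unadjusted p of at most 0.05. Over all genes 0.0921% and 0.893% were called, and 7.52% and 12.3% passed at the unadjusted threshold. DESeq2 called Ppargc1a and Cox18 in both comparisons, and these were named after their values were seen. Ppargc1a, a coactivator of mitochondrial biogenesis, stood at 2.605, 3.899 and 1.878 CPM in wild-type and at 6.772, 11.52 and 15.35 CPM in double-null CLPs, and at 4.426, 4.296 and 2.187 against 8.85, 18.41 and 12.98 CPM in B cell progenitors. Every double-null library lay above every wild-type one in both populations, at log2 fold changes of 2.05 ± 0.448 and 1.90 ± 0.52, but edgeR adjusted p was 0.182 and 0.145. Cox18, which inserts a mitochondrially encoded subunit of complex IV into the membrane, stood at 25.04, 23.15 and 24.2 CPM in wild-type and at 14.64, 14.28 and 16.14 CPM in double-null CLPs, and at 24.79, 26.74 and 25.42 against 18.36, 16.48 and 14.7 CPM in B cell progenitors. The double-null libraries lay below the wild-type ones in both populations, at -0.69 ± 0.145 and -0.65 ± 0.158 (edgeR adjusted p = 0.15 and 0.102). The other regulators gave no called gene, as with Nrf1 (-0.23 ± 0.174 and -0.27 ± 0.226) and Tfam (-0.25 ± 0.139 and -0.19 ± 0.159).

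The glycolysis genes had a median log2 fold change of 0.271 in double-null CLPs and 0.275 in double-null B cell progenitors, and the proliferation genes of -0.307 and -0.465, with 0 called in each. The cytosolic ribosomal proteins had medians of -0.183 and 0.073 and the mitochondrial ribosomal proteins of -0.0902 and -0.0136, the TCA cycle genes of 0.00821 and -0.0701 and the assembly factors of -0.0346 and 0.0485. These list medians are for the double loss only. Summed proliferation genes lay between 5908.2 and 6991.6 CPM in double-null CLPs. The ranges were 5900.1 to 6873 CPM in PLCgamma1-null, 6207.1 to 6415.8 in PLCgamma2-null and 5988.8 to 9703.1 in wild-type CLPs. In the other single-knockout, double against single and interaction comparisons edgeR called 0 genes of the 7 lists, and DESeq2 called Ppargc1a or Cox18 in CLPs and Tyms in B cell progenitors in the double against single comparisons. Of 48 tested genes of 7 marker lists, those of lymphoid progenitors and the B lineage included, edgeR called 1, Sdc1. It was lower in double-null than in wild-type B cell progenitors by a log2 fold change of -1.44. In that comparison 13 of the 48 stood at an unadjusted p of at most 0.05, against 12.3% of all genes. DESeq2 called 5 there, Sdc1, C1qa, Klrb1c, Fcer2a and Bst2, and 1, Fcer2a, in double-null against wild-type CLPs, where edgeR called 0 and 4 passed at the unadjusted threshold. The myeloid markers had a median of 0.82 and 0.945 in the double-null CLPs and B cell progenitors with 0 called by edgeR. The single losses shared the high sum of library 1. It was 2872.6, 9929.8, 8783.9 and 8889 CPM in wild-type, PLCgamma1-null, PLCgamma2-null and double-null CLPs. B cell progenitors held 1591.8, 8803.5, 8588.4 and 7703.7 CPM there. The wild-type and double-null sums of library 2 were 2561.7 and 3849.1 CPM in CLPs and 2353.9 and 2976.2 CPM in B cell progenitors. For library 3 they were 4386.7 and 5592.9, and 4967 and 5808.1 CPM.

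Between wild-type populations 5 of 269 list genes were called higher and 18 lower in B cell progenitors, where 3.5% of all genes were called. Of the 48 marker genes tested, 0 were called there by edgeR and 0 by DESeq2, beside 3.5% and 5.52% of all genes. Of 83 cytosolic ribosomal protein genes 15 were lower and 1 (Rpl39) was higher, and of 19 glycolysis genes 2 were lower, Eno1 and Gapdh (-0.84). Gabpa, which encodes the DNA-binding subunit of GABP, was higher at 198.9 ± 2.34 against 123.4 ± 10.3 CPM (log2 fold change 0.69 ± 0.117, edgeR adjusted p = 0.000746), and its exons overlap those of the member Atp5j on the other strand. Mrps25, of the mitochondrial ribosome, was higher at 121.3 against 27.1 CPM, Mrps36 was lower (-1.43), and Pdha1, of pyruvate dehydrogenase, was higher (0.61). For these list genes too, the populations and the making of their tables cannot be told apart. Eno1 is the gene that stood at 0 in all 12 B cell progenitor libraries.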

How the data were processed

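RNA from 12 mice, with both sorted populations of each mouse, gave 24 poly(A)-selected libraries. Per the labels and the submitters' processing notes, the authors aligned reads to mm10 with STAR 2.5.0a and deposited raw read counts per gene, 1 table per library. The counting program, its strand setting and its treatment of multiply matching reads are not given in the sources used here. Rows for reads on no gene, between 17.94% and 87.35% of each library, and for ambiguous reads were left out of library sizes.

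Counts were scaled with TMM, genes with low counts were removed with filterByExpr, and quasi-likelihood models were fitted over all genes in edgeR 4.0.16 (R 4.3.3), with Benjamini-Hochberg adjustment over all genes. Genotypes were compared in a fit of the 12 libraries of a population, and populations in a fit of all 24. A call needed an adjusted p of at most 0.05 and a log2 fold change of at least 0.5 in size. CPM are read counts relative to the TMM-scaled number of reads on genes of a library. Standard errors are those of the log2 fold change. Exon lengths, opposite-strand overlap and shared 50-base stretches came from the mm10 annotation. Alternatives included DESeq2 1.42.0, the tool the authors used, and the mouse as a block.

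The genes always named were the catalytic or core subunits and the isoform sets. Added to them were called members (where at most 10), the 3 members with the lowest p where fewer than 3 were called, members that failed the filter, and up to 4 called genes of other lists with the largest change. The members and lists were chosen with earlier results of these data known. The fits were tested on simulated counts with known changes, and changes of the size of the fold threshold were mostly missed. Pairs of replicates of a group differed by more than sampling noise, with a chi-square per degree of freedom between 9.62 and 147. The mouse numbers pair the populations, as the labels give both sorts of a mouse the same name. The deviations of the 3 pairs correlated at -0.0836, 0.208 and -0.0278 in wild-type, 0.238, -0.35 and -0.0727 in PLCgamma1-null, 0.53, -0.0482 and 0.248 in PLCgamma2-null and 0.348, 0.171 and 0.2 in double-null cells.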

Additional observations from a re-analysis of the deposited data

Results flagged for a closer look

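The second PLCgamma1-null B cell progenitor library held 87.35% of its reads on no gene, a measure outside the comparisons and above the 59.86% to 71.41% of wild-type B cell progenitors. Without this library, 1 member instead of 3 was called between PLCgamma1-null B cell progenitors and CLPs. The calls of Uqcrb and Ndufa3 were lost. Other libraries of this population above the wild-type range were PLCgamma1-null library 3 (73.58%) and PLCgamma2-null libraries 2 and 3 (75.82% and 74.93%). The cause of these shares was not tested.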

How the results depend on the processing

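In the 12 comparisons of genotypes and in the test of the double-null effect between populations, 0 members were called under every alternative run. Counts between populations moved. The share of reads on no gene did not overlap between the populations, so counts with this covariate cannot separate it from the population. In wild type, with 2 members called, there were 4 by the adjusted p alone, 1 without TMM scaling, 1 without the low-count filter, 4 with DESeq2, 5 with the share of reads on no gene as a covariate, 0 on counts thinned to equal depth, 1 with only the groups compared and 1 without any single replicate. In PLCgamma1-null cells, with 3 called, there were 5 with DESeq2, 1 with the covariate, 0 on thinned counts, 0 with only the groups compared and between 1 and 7 without a replicate, the 7 without B cell progenitor replicate 1. In PLCgamma2-null cells, with 3 called, there were 1 without TMM, 6 with the covariate, 0 thinned, 1 with only the groups compared and between 1 and 2 without a replicate. In double-null cells, with 2 called, there were 5 with DESeq2, 0 thinned, 1 with only the groups compared and between 1 and 3 without a replicate. Among members with neither opposite-strand exons nor shared stretches, an alternative chosen after seeing the data, 0 were called in each genotype. Ndufa3 was left out there by an opposite-strand overlap of 0.777% of its exonic bases. The cause of these moves was not tested, beyond the fewer reads of thinned counts, the fewer libraries and the fewer members that the alternatives themselves leave.

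With the mouse as a block, the counts between populations were 3, 4, 3 and 4 in wild type, PLCgamma1-null, PLCgamma2-null and double-null cells. The block added Ndufa3 in wild type, Cycs in PLCgamma1-null cells and Cycs and Ndufab1 (log2 fold change 0.92, adjusted p = 0.0448) in double-null cells, and changed no other call of a member. Within a population the numbers pair samples only by the rule on correlations, in double-null against PLCgamma1-null CLPs (0.346, 0.612 and 0.35), double-null against PLCgamma2-null CLPs (0.204, 0.484 and 0.333) and the latter in B cell progenitors (0.253, 0.168 and 0.13), and the block left 0 members called.

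With the share of reads on no gene as a covariate the member median turned to 0.0341 in double-null against wild-type CLPs and to -0.31 between wild-type populations. The latter value cannot separate the covariate from the population, since the share was at most 45.24% in CLPs and at least 59.86% in B cell progenitors. Without 1 replicate the median ran from -0.178 to 0.00113 in double-null CLPs, from 0.00756 to 0.142 in double-null B cell progenitors and from -0.166 to 0.0138 in PLCgamma1-null B cell progenitors. Depth and 3 libraries a group limit what could be called: 52 of 89 intervals in double-null CLPs and 58 of 88 in double-null B cell progenitors lay within 0.5 of 0 on the log2 scale.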
